A study of Homo sapiens with 24 samples.

Results

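The RNAs described here are the long non-coding RNAs that the deposited table of HMLE cells carries under 3 kinds of systematic symbol: long intergenic RNAs (LINC followed by a number), antisense RNAs (a gene symbol followed by -AS and a number) and divergent transcripts (a gene symbol followed by -DT). A symbol of that form was taken where its normalized count averaged at least 10 over all 24 libraries. Of the 38849 genes of the table, 3787 had such a symbol, 1845 of these were above 0 in at least 1 library, and 333 reached the mean. These are 104 intergenic, 191 antisense and 38 divergent RNAs, or 2.75% of the 12096 genes of the table at that mean. The RNAs were thus chosen by their symbol and their mean normalized count, a level and not a difference between groups, and those levels are given as a description. An RNA that was high in 1 group alone could reach it through that group, so that counts of changed RNAs describe those that reached it and not all 3787. Just inside the mean were SMIM2-AS1, PTPRD-AS1 and RBM26-AS1 at 10.01, 10.02 and 10.1, and just outside it H1-10-AS1, RELA-DT and CENATAC-DT at 9.97, 9.96 and 9.91.

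Long non-coding RNAs are transcribed and often spliced and polyadenylated as mRNAs are, but are not annotated as coding for a protein. An antisense RNA is transcribed from the strand opposite its partner gene and may overlap that gene's exons, whereas a divergent transcript starts close to the start of its partner and runs away from it, often from the same CpG-rich promoter region. As a class these RNAs are known for low abundance, for cell-type-restricted expression, and for decay rates that range from very short-lived to as stable as housekeeping mRNA. RBMS3 is an RNA-binding protein reported to bind AU-rich stretches of RNA and to affect RNA stability.

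The study asked which RNAs depend on RBMS3 for their stability. HMLE is an immortalized human mammary epithelial line. 12 libraries came from HMLE cells that over-express RBMS3 and 12 from HMLE cells that express LacZ, a bacterial enzyme gene that serves as the control. Each line was given actinomycin D, which blocks transcription, at 10 µg/mL for 0, 90, 180 or 360 min, so that there were 8 groups of 3 libraries. The libraries read the 3′ end of polyadenylated RNA in single reads of 75 bases. The labels name 1 line per construct and do not say whether it is a clone or a pool, nor whether replicate libraries stem from separate cultures. The p-values therefore set a difference against the spread of these libraries, part of which may be technical. They do not speak for other lines with the same construct.

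RBMS3 itself had normalized counts of 358, 254 and 203 in RBMS3 cells at 0 min, against 75.7, 101 and 116 in LacZ cells, a log2 difference of 1.45 ± 0.39 (SE, adjusted p = 0.0061). The sources do not describe the 3′ end of the construct, where these libraries read. Summed over 6 mesenchymal markers, the libraries of RBMS3 cells lay at 37245 to 50152 and those of LacZ cells at 7403 to 10216, and over 7 mammary epithelial markers they lay at 3007 to 10826 in RBMS3 cells and 12447 to 17259 in LacZ cells. The epithelial markers did not differ alike. At 0 min the log2 difference of RBMS3 minus LacZ cells was 1.26 for KRT14 and 0.06 for KRT5. It was -10.2 for EPCAM, -5.75 for CDH1, -2.45 for KRT18 and -0.71 for KRT8, and at 90 min TP63 differed by -7.84. Markers of leukocytes or endothelium summed to 5.11 to 23.9 in RBMS3 cells and 21.6 to 55.9 in LacZ cells, with 4 and 3 of the 8 at 0 in every library of the line. Estimated reads per library were 4426445 to 9856338. One library stood apart, replicate 2 of LacZ cells at 0 min: a pair with it had the lowest Pearson r across genes, 0.909, and pairs in every other group reached 0.937 or more. The epithelial sum in RBMS3 cells was 3007 to 4722 at 90 to 360 min, against 10640.4 to 10826.5 at 0 min. Its genes did not change alike. In RBMS3 cells at 90 against 0 min, the log2 difference was -2.94 for KRT14, -1.89 for KRT5 and -1.998 for TP63. Each of them passed an adjusted p of 0.05 (limma). It was -0.06 for KRT18, -0.34 for KRT8, -0.48 for CDH1 and 1.399 for EPCAM, and none of those passed. The mesenchymal sum in RBMS3 cells was 47196 to 50152 at 0 min, 37245 to 38597 at 90 min and 42076 to 45032 at 360 min. These marker sums differ between the lines beside every line difference given here. The epithelial and the mesenchymal sum also move beside every change from 0 min in RBMS3 cells and every slope difference. Their part in these results was not tested. For the 3 libraries of RBMS3 cells at 0 min and the 9 of LacZ cells at 90, 180 and 360 min, the attached transcript file carries another sample's title, and their table columns were taken by title. Every line difference and every change from 0 min given here thus uses at least 1 group in which file and title disagree.

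In the GENCODE release 29 annotation, which held 314 of the 333 RNAs, 177 antisense RNAs could be set beside their partner gene. Of these, 137 overlapped an exon of the partner, 66 overlapped the partner's last exon, and 61 started within 1000 bases of the partner's start on the other strand. Of 37 divergent RNAs, 33 started within 1000 bases of the partner's start and 8 overlapped one of its exons. The median longest transcript was 2456.5 bases for the intergenic, 2399 for the antisense and 2076 for the divergent RNAs. The sources do not state whether reads were assigned by strand. If they were not, reads from an antisense RNA and from an overlapping partner cannot be told apart. The partner's values are given beside some of the antisense RNAs named below, but not beside all of them. ATP2A1-AS1, EIF1B-AS1, IRX4-AS1, PRR34-AS1, SH3PXD2A-AS1, VPS9D1-AS1 and ZNF232-AS1 are among those shown without them.

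Promoter windows from RefSeq (build GRCh38.p14, 250 bases before to 50 bases after a start) were found for 237 of the RNAs, which have 288 windows among 35116 for all genes. A GC box, GGGCGG or its reverse complement CCGCCC, stood in 81.8% of the windows of divergent RNAs, 60.1% of those of antisense RNAs and 46.0% of those of intergenic RNAs, against 45.0% of all windows. The median number of CpG dinucleotides per window was 33 for divergent, 24.5 for antisense and 10 for intergenic RNAs, against 14 for all. An E-box, CACCTG or CAGGTG, stood in 19.8% of the windows of these RNAs and 20.6% of all windows, and the letters TATAAA, sought on both strands, in 9.03% and 11.5%. None of these motifs contains another. A match describes the letters of a window and not a bound site.

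4 windows are shown because they belong to RNAs on which the results below turn, and because they differ widely in CpG content. HHIP-AS1 (chr4:144645970-144646269, minus strand, 34 CpG) was higher in RBMS3 cells at every time, and SPINT1-AS1 (chr15:40844475-40844774, minus strand, 29 CpG) lower. LINC01085 (chr4:14111718-14112017, plus strand, 1 CpG) was listed at 0 in LacZ cells before treatment, and LINC00324 (chr17:8223994-8224293, minus strand, 3 CpG) fell within 90 min of actinomycin D in both lines. Capitals mark GC boxes on either strand, of which the HHIP-AS1 window holds 3, the SPINT1-AS1 window 1 and the other windows 0.
HHIP-AS1: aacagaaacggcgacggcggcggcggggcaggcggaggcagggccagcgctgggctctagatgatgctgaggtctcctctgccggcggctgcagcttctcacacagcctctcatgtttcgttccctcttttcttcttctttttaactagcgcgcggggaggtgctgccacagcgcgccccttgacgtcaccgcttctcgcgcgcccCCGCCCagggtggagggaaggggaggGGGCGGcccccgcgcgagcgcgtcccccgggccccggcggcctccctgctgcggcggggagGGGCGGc
SPINT1-AS1: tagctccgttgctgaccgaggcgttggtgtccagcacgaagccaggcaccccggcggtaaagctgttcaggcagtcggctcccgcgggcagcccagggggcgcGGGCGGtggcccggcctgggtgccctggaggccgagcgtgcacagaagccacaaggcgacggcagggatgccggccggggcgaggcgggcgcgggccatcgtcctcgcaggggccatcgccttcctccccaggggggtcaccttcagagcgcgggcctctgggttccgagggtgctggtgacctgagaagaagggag
LINC01085: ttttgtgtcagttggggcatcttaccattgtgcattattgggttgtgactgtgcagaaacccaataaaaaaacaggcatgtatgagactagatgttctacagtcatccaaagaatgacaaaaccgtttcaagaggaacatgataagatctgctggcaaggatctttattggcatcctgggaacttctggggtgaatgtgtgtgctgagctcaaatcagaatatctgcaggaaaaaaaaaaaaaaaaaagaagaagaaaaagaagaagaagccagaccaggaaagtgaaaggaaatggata
LINC00324: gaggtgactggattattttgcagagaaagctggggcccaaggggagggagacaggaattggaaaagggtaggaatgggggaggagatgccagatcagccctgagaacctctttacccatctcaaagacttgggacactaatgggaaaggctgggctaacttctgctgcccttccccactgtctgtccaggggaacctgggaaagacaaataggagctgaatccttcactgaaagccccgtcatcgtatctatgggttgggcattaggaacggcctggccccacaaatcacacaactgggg

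The 333 RNAs were of low abundance. Their mean normalized count over all libraries had a median of 23.4, against 158 for all 12096 tested genes, and 74 reached a mean of 50. Together they took 0.249 ± 0.00495% of the summed normalized counts in RBMS3 cells at 0 min, 0.223 ± 0.00686% at 90 min, 0.217 ± 0.00930% at 180 min and 0.212 ± 0.00587% at 360 min (SD, n = 3 each). In LacZ cells the share was 0.238 ± 0.00876%, 0.211 ± 0.00440%, 0.212 ± 0.00393% and 0.204 ± 0.00199% at the same times. All values are relative to the other RNA of a library, since RNA per cell was not measured, and fewer cells that express an RNA and less of it per cell cannot be told apart in these libraries.

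OIP5-AS1, a widely expressed RNA known for its conserved site for the microRNA miR-7, was the most abundant at a mean of 1088 and made up 6.79% of the summed level of all 333. The next in order were OTUD6B-AS1 at 459, FGD5-AS1 at 379.7, NNT-AS1 at 355, LINC01551 at 346, SLC16A1-AS1 at 257, PRR34-AS1 at 249, WAC-AS1 at 247, VPS9D1-AS1 at 242 and LINC01322 at 229. These 10 made up 24% of the summed level. From SLC16A1-AS1 to LINC01322, neighbours in this order differed by less than the SD of the libraries in most groups. OIP5-AS1 stood at 885, 1089 and 990.0 in RBMS3 cells at 0 min, against 968, 619 and 949 in LacZ cells, a log2 difference of 0.25 ± 0.15 (SE, adjusted p = 0.22). These groups overlap. LINC01551 likewise ranged over 351, 377 and 437 in RBMS3 cells and 354, 474 and 262 in LacZ cells at 0 min, and at no time did it pass the threshold.

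How far the table follows the reads could be checked in the 12 libraries whose transcript file carries the sample's own name. There, 214 of the 314 RNAs with GENCODE transcripts had summed estimated reads of at least 0.5 times their table value, 100 had less and 52 had under 0.1 times. 19 RNAs had no transcript to sum. Among the 79 RNAs named by rule, 51 had at least 0.5 times. The 22 with less were CELF2-DT, DHRS4-AS1, EIF1B-AS1, LINC00173, LINC00623, LINC00839, LINC00863, LINC00960, LINC01060, LINC01322, LINC01503, LINC01572, LINC02381, LURAP1L-AS1, MAP3K2-DT, MAP4K3-DT, NCK1-DT, NR2F1-AS1, SCN1A-AS1, STARD7-AS1, TMEM51-AS1 and ZNF790-AS1, and the reason was not tested. FRMD6-AS1, LINC00909, LINC01184, LINC02822, MAFG-DT and RPARP-AS1 had no transcript to sum. Over the 314, the mean estimated reads per library had a median of 15.3, with 110 under 10 reads and 23 at 100 or more. By sequence, the last 300 bases of 12 of the 314 shared at least 50% of their 31-base words with the same strand of another gene, among them ARHGEF35-AS1, LINC00623, LINC02503 and WAC-AS1, and 17 did so with the opposite strand, so that their reads are uncertain.

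Before actinomycin D, 44 of the 333 RNAs were higher in RBMS3 cells than in LacZ cells and 33 were lower, at an adjusted p under 0.05 over all 12096 genes (limma). That is 13.2% and 9.91%, against 18.6% higher and 18.9% lower among all tested genes, so the share that passed was below that of the table as a whole. The median SE of a log2 difference was 0.60 for these RNAs and 0.28 for all tested genes. Among the 111 of lowest mean 15 passed, among the middle 111 22 passed, and among the highest 111 40 passed. 16 intergenic, 21 antisense and 7 divergent RNAs were higher in RBMS3 cells, and 17, 13 and 3 were lower. The median log2 difference was 0.04 for the 333 and 0.01 for all tested genes.

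When libraries were rescaled to the summed cytosolic ribosomal protein genes, the median of all tested genes moved to -0.29 and the split became 31 higher and 58 lower (9.31% and 17.4%), against 11.1% and 31.6% of all tested genes. Without replicate 2 of LacZ cells at 0 min it was 36 higher and 29 lower, against 16.7% and 18.2% of all tested genes. Under both settings the share that passed was again below that of all tested genes in each direction. Of those that passed with the deposited scaling, 33 of the higher and 21 of the lower had summed reads of at least 0.5 times their table value.

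**Figure D1:**
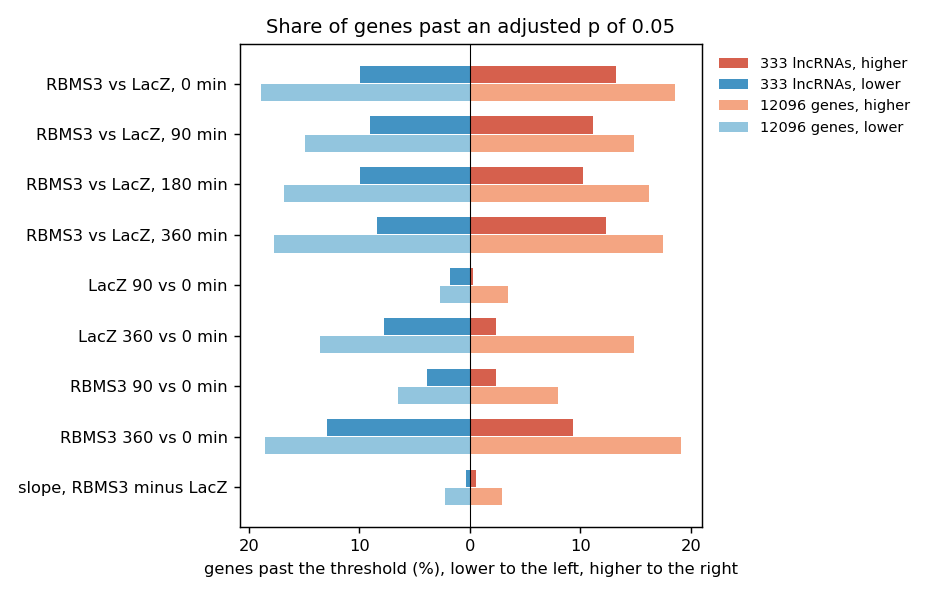
Percent of genes that passed an adjusted p of 0.05 in each comparison, lower to the left and higher to the right, for the 333 long non-coding RNAs (dark bars) and for all 12096 tested genes (pale bars). In every comparison and direction the dark bar is shorter than the pale one, for example 13.2% against 18.6% higher and 9.91% against 18.9% lower in RBMS3 cells at 0 min.

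The antisense and divergent RNAs that were higher in RBMS3 cells at 0 min included those of HHIP, LOXL1, NR2F1, FOXC2 and APCDD1L. HHIP-AS1, antisense to the gene of a hedgehog-binding inhibitor, stood at 44.0, 49.0 and 66.7 in RBMS3 cells at 0 min, against 0, 0 and 4.94 in LacZ cells. 2 of the 3 LacZ libraries list it at 0 and none reaches the RBMS3 range. Its log2 difference was 4.88 ± 0.63 (SE, adjusted p = 3.0e-06). HHIP, the partner, stood at 799, 1144 and 1377 in RBMS3 cells, against 4.997, 5.35 and 0 in LacZ cells. At 360 min HHIP-AS1 had 53.1, 73.3 and 63.9 in RBMS3 cells and is listed at 0 in all 3 LacZ libraries, so no fold is given (adjusted p = 2.1e-07). LOXL1-AS1, antisense to an enzyme gene that cross-links elastin, stood at 82.5, 84.6 and 80.7 in RBMS3 cells, against 1.87, 3.03 and 11.2 in LacZ cells at 0 min. The RBMS3 libraries lay within a narrow band far above all LacZ libraries, and the log2 difference was 4.01 ± 0.60 (SE, adjusted p = 2.0e-05). LOXL1 itself differed by 2.74 ± 0.22 (SE, adjusted p = 2.5e-09).

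NR2F1-AS1, beside the gene of the nuclear receptor COUP-TFI, had normalized counts of 79.2, 99.7 and 46.2 in RBMS3 cells and 4.48, 9.95 and 7.38 in LacZ cells at 0 min, a log2 difference of 3.19 ± 0.70 (SE, adjusted p = 0.0011). At 360 min it stood at 48.7, 92.5 and 83.9 in RBMS3 cells, against 4.20, 2.02 and 65.0 in LacZ cells. Replicate 3 of LacZ cells at 360 min is the only LacZ library to reach the RBMS3 range of its time. NR2F1 stood at 488, 474 and 437 in RBMS3 cells and 38.1, 29.7 and 32.6 in LacZ cells at 0 min. FOXC2-AS1 starts close to FOXC2, a forkhead factor of mesenchyme. At 0 min it was 18.2, 22.6 and 9.24 in RBMS3 cells, against 4.97, 2.05 and 0 in LacZ cells, and its log2 difference was 2.67 ± 0.71 (SE, adjusted p = 0.0051) at 0 min and 3.92 ± 0.71 (SE, adjusted p = 0.00018) at 360 min. FOXC2 itself fell by 360 min in both lines, with -3.57 ± 0.32 (SE, adjusted p = 2.6e-08) in RBMS3 cells and -3.57 ± 0.32 (SE, adjusted p = 5.0e-08) in LacZ cells, where FOXC2-AS1 had 1.43 ± 0.71 (SE, adjusted p = 0.12) and 0.18 ± 0.71 (SE, adjusted p = 0.88) in that order of lines and did not pass. APCDD1L-DT stood at 185, 145 and 169 in RBMS3 cells, against 13.6, 47.0 and 10.7 in LacZ cells, with LacZ replicate 2 the highest of the control libraries, and differed by 3.05 ± 0.40 (SE, adjusted p = 4.3e-06). ATP2A1-AS1, which overlaps the last exon of a calcium pump gene on the other strand, was 37.6, 27.5 and 42.1 in RBMS3 cells and 1.71, 8.63 and 3.70 in LacZ cells (log2 difference 2.87 ± 0.68, SE, adjusted p = 0.0021). MAP3K2-DT was 18.4, 26.3 and 44.5 in RBMS3 cells and 12.1, 0 and 4.26 in LacZ cells (log2 difference 2.82 ± 0.77, SE, adjusted p = 0.0062), a call that ended without LacZ replicate 2 (1.80, adjusted p = 0.053).

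Of the intergenic RNAs, LINC01085 had 21.9, 30.2 and 28.9 in RBMS3 cells at 0 min and is listed at 0 in all 3 LacZ libraries (adjusted p = 3.4e-07). Over all 4 times it ranged from 21.9 to 37.1 in RBMS3 cells and from 0 to 2.86 in LacZ cells. LINC02086 stood at 34.2, 43.4 and 40.4 in RBMS3 cells and 4.90, 0 and 0 in LacZ cells at 0 min, a log2 difference of 4.47 ± 0.69 (SE, adjusted p = 2.7e-05). At 360 min its groups overlap, with 17.4, 8.23 and 33.98 in RBMS3 cells and 2.68, 10.9 and 4.47 in LacZ cells, and the difference of 1.54 ± 0.69 (SE, adjusted p = 0.090) did not pass. LINC00632, the transcript from whose locus the circular RNA CDR1as is made, stood at 188, 425 and 224 in RBMS3 cells, against 30.8, 34.9 and 21.5 in LacZ cells at 0 min. Replicate 2 was the highest RBMS3 library, the groups did not overlap, and the log2 difference was 3.15 ± 0.40 (SE, adjusted p = 2.0e-06). LINC01133 stood at 58.9, 65.9 and 45.8 in RBMS3 cells and 3.21, 12.7 and 3.72 in LacZ cells at 0 min, a log2 difference of 3.14 ± 0.80 (SE, adjusted p = 0.0038). Of higher abundance, LINC00707 was 320.3, 263 and 326 in RBMS3 cells and 107, 84.8 and 97.0 in LacZ cells at 0 min, with no overlap and a log2 difference of 1.65 ± 0.21 (SE, adjusted p = 2.4e-06).

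The largest difference of all 333 was in LHX1-DT, the divergent transcript of the LIM homeobox gene LHX1. It had 2.66, 2.92 and 0 in RBMS3 cells at 0 min, against 182, 266 and 154 in LacZ cells, a log2 difference of -6.34 ± 0.48 (SE, adjusted p = 1.4e-09). LHX1 stood at 94.3, 40.9 and 31.1 in RBMS3 cells and 993, 1276 and 1036 in LacZ cells. Both members of that pair were thus lower in every RBMS3 library than in any LacZ library. SPINT1-AS1, beside the gene of an epithelial inhibitor of serine proteases, was 0, 14.4 and 13.4 in RBMS3 cells, against 60.3, 38.0 and 58.5 in LacZ cells at 0 min, and differed by -3.11 ± 0.83 (SE, adjusted p = 0.0055). SPINT1 stood at 10.7, 6.84 and 20.5 in RBMS3 cells and 153, 100.3 and 137 in LacZ cells. EPHA1-AS1, beside an ephrin receptor gene, was 17.3, 7.88 and 1.51 in RBMS3 cells and 18.4, 48.7 and 60.9 in LacZ cells, a log2 difference of -2.40 ± 0.73 (SE, adjusted p = 0.014). The lowest LacZ library lies close above the highest RBMS3 library, and the call ended without LacZ replicate 3 (-2.06, adjusted p = 0.059) or RBMS3 replicate 3 (-1.61, adjusted p = 0.10). EPHA1 itself differed by -4.33 ± 0.72 (SE, adjusted p = 6.6e-05) at 0 min.

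SH3PXD2A-AS1 lies beside the gene of TKS5, a scaffold protein of podosomes, and stood at 1.07, 12.2 and 1.02 in RBMS3 cells, against 22.3, 16.3 and 21.8 in LacZ cells at 0 min (log2 difference -2.46 ± 0.60, SE, adjusted p = 0.0025). NUP153-AS1, which starts beside a nuclear pore gene, was 7.51, 3.77 and 5.13 in RBMS3 cells and 43.1, 23.5 and 31.6 in LacZ cells, again without overlap (log2 difference -2.38 ± 0.54, SE, adjusted p = 0.0014). NUP153 itself differed by -0.54 ± 0.27 (SE, adjusted p = 0.13) at 0 min. LINC01819 was 17.0, 8.07 and 6.39 in RBMS3 cells and 52.3, 67.7 and 45.5 in LacZ cells at 0 min, and 2.71, 0 and 0.980 against 72.2, 78.2 and 51.3 at 360 min in the same order of lines. Its log2 difference was -2.38 ± 0.55 (SE, adjusted p = 0.0016) at 0 min and -5.11 ± 0.55 (SE, adjusted p = 2.8e-07) at 360 min. LINC01291 is listed at 0 in all RBMS3 libraries at 0, 90 and 180 min and stood at 13.1, 24.1 and 21.6 in LacZ cells at 0 min, so no fold is given (adjusted p = 7.4e-07). LINC00173, LURAP1L-AS1, NCK1-DT and LINC00863 were also among the 10 largest differences toward lower values of the RNAs whose higher group averaged 20 or more and whose libraries did not overlap, with log2 differences of -4.77, -2.83, -2.78 and -2.31 (SE 1.05, 0.73, 0.76 and 0.55).

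**Figure D2:**
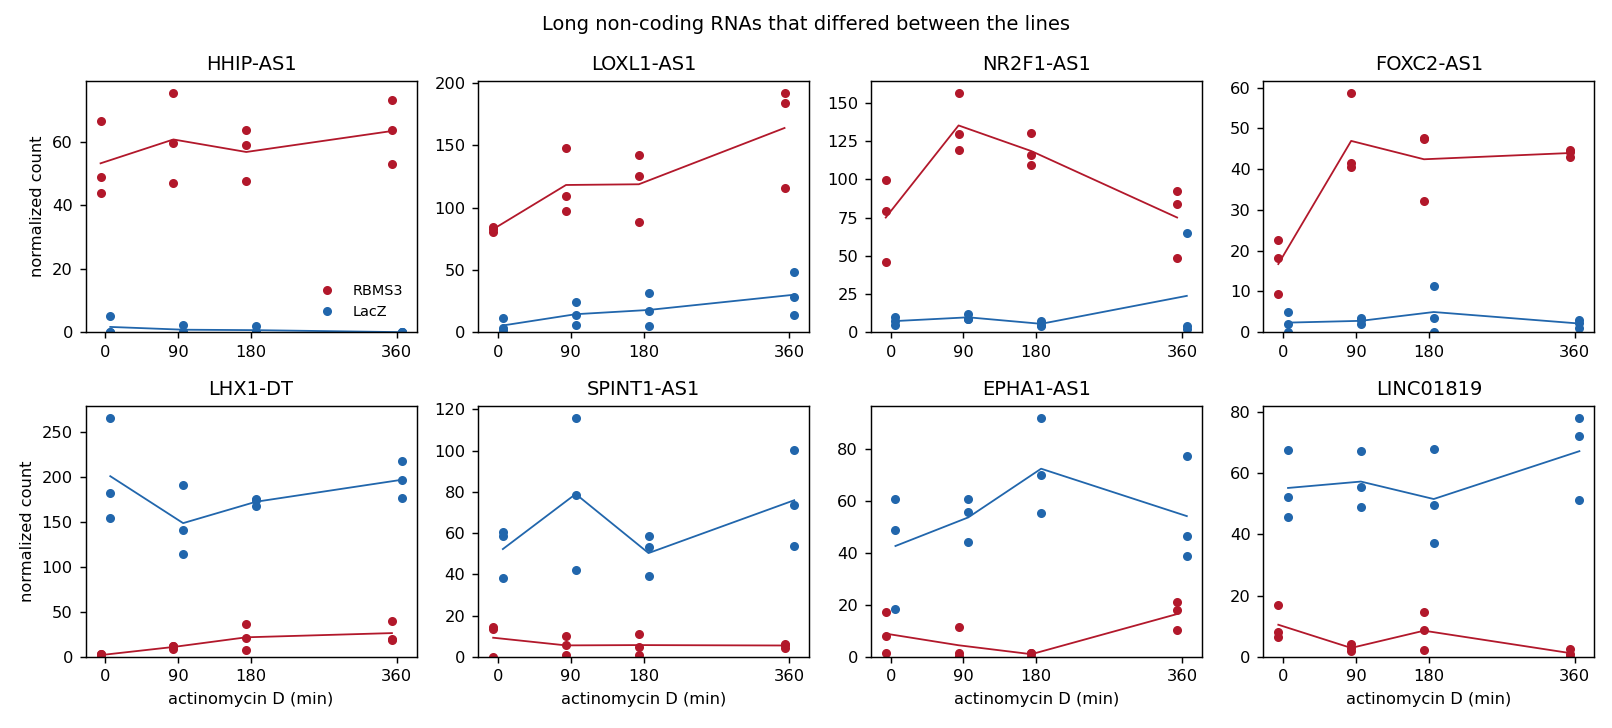
Normalized count of 8 RNAs in each library (points) against minutes of actinomycin D, with the group mean joined by lines, RBMS3 cells in red and LacZ cells in blue. The upper 4 were higher in RBMS3 cells and the lower 4 were lower, at 0 min with no overlap of the libraries of both lines, as for HHIP-AS1 with 44.0, 49.0 and 66.7 in RBMS3 cells against 0, 0 and 4.94 in LacZ cells.

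The difference between the lines was measured again in separate libraries at each later time. At 90 min, 37 of the 333 RNAs were higher in RBMS3 cells and 30 lower, against 14.9% higher and 15.0% lower among all tested genes. At 180 min, 34 were higher and 33 lower, against 16.2% and 16.8%. At 360 min, 41 were higher and 28 lower, against 17.5% and 17.7%. On the ribosomal protein scaling the split was 30 higher and 33 lower at 90 min, against 12.8% and 17.5% of all tested genes. It was 31 higher and 37 lower at 180 min, against 12.5% and 21.1%, and 29 higher and 34 lower at 360 min, against 12.6% and 23.5%. 142 RNAs (42.6%) passed at 1 or more of the 4 times and 191 at none, where 56.9% of all tested genes passed at 1 or more. 0 were higher at 1 time and lower at another, as 1.12% of all tested genes were.

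16 RNAs (4.80%, against 8.78% of all tested genes) were higher in RBMS3 cells at all 4 times: APCDD1L-DT, ATP2A1-AS1, DHRS4-AS1, FOXC2-AS1, HHIP-AS1, LINC00632, LINC00707, LINC00839, LINC01085, LINC01133, LINC01184, LINC01224, LINC01583, LINC02381, LOXL1-AS1 and NR2F1-AS1. 8 (2.40%, against 8.25% of all tested genes) were lower at all 4: LHX1-DT, LINC00869, LINC01291, LINC01322, LINC01503, LINC01819, OTUD6B-AS1 and SPINT1-AS1. Of the 77 that passed at 0 min, 37 passed in the same direction at 360 min, which is 37 of the 69 that passed there, and 0 passed in the opposite direction. Higher at both times were 25 (7.51%) and lower at both 12 (3.60%), against 11.1% and 10.9% of all tested genes, of which 0.802% changed direction. Across the 333 RNAs, the log2 differences at 0 and 360 min had a Pearson r of 0.602, across genes whose values at 1 time come from the same 6 libraries.

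**Figure D3:**
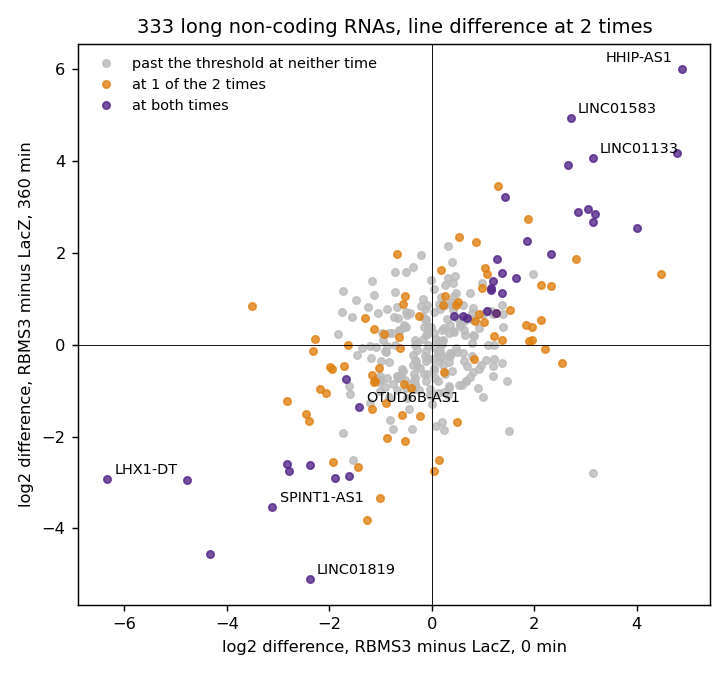
Log2 difference of RBMS3 minus LacZ cells at 0 min (horizontal) and at 360 min (vertical) for the 333 RNAs, 1 point each, coloured by the number of these times at which it passed the threshold. Points that passed at both times, 25 higher and 12 lower, all lie in the upper right or lower left. Values of RNAs listed at 0 throughout a group, such as HHIP-AS1 at 360 min, depend on the added count of 1.

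OTUD6B-AS1, the next most abundant after OIP5-AS1, starts beside a deubiquitinase gene and was lower in every RBMS3 library than in any LacZ library of its time. It stood at 252, 204 and 213 in RBMS3 cells at 0 min, against 468, 801 and 567 in LacZ cells, and at 277, 289.5 and 277 in RBMS3 cells at 360 min, against 782, 694 and 692 in LacZ cells. Its log2 difference was -1.42, -1.09, -1.42 and -1.36 at 0, 90, 180 and 360 min (SE 0.17, adjusted p at most 3.2e-05). OTUD6B itself differed by -1.56 ± 0.25 (SE, adjusted p = 4.1e-05) at 0 min. LINC01322 stood at 128, 102 and 80.2 in RBMS3 cells and 373, 259 and 363 in LacZ cells at 0 min, and its difference was -1.68 at 0 min and -0.75 at 360 min. LINC00869 was 11.97, 39.0 and 12.01 in RBMS3 cells and 125, 122 and 165 in LacZ cells at 360 min, a log2 difference of -2.86 ± 0.44 (SE, adjusted p = 2.9e-05). Of the higher RNAs, LINC01224 stood at 96.3, 128 and 137 in RBMS3 cells and 26.0, 19.1 and 2.58 in LacZ cells at 90 min, with a log2 difference of 3.26 ± 0.53 (SE, adjusted p = 6.0e-05), against 1.86 at 0 min. LINC02381 was 115, 114 and 113 in RBMS3 cells and 45.1, 38.5 and 57.7 in LacZ cells at 0 min (log2 difference 1.28 ± 0.23, SE, adjusted p = 0.00016). The groups of that RNA did not overlap at any time.

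Of the RNAs with the largest differences at 360 min, SCN1A-AS1, LINC00623, LINC00960 and ILRUN-AS1 had not passed at 0 min. SAP30-DT, divergent to a gene of a histone deacetylase complex, stood at 78.8, 60.0 and 42.4 in RBMS3 cells, against 2.73, 7.57 and 7.31 in LacZ cells at 360 min, a log2 difference of 3.21 ± 0.55 (SE, adjusted p = 0.00010), and had passed at 0 min with 1.43 ± 0.55 (SE, adjusted p = 0.046). LINC01583 was 18.97, 27.2 and 49.5 in RBMS3 cells at 360 min and is listed at 0 in all 3 LacZ libraries (adjusted p = 2.3e-06). SCN1A-AS1 was 0, 4.96 and 4.88 in RBMS3 cells, against 66.3, 49.5 and 28.0 in LacZ cells at 360 min (log2 difference -3.82 ± 0.81, SE, adjusted p = 0.00087), having differed by -1.26 ± 0.81 (SE, adjusted p = 0.24) at 0 min. LINC00623 was 9.04, 0 and 0 in RBMS3 cells and 12.1, 21.4 and 34.9 in LacZ cells at 360 min (log2 difference -3.34 ± 0.87, SE, adjusted p = 0.0047), with reads that another gene's end could share. LINC01503 and NCK1-DT had differences of -2.91 and -2.76 at 360 min (SE 0.71 and 0.76). The calls of LINC00960 (2.74 ± 0.89, SE, adjusted p = 0.021) and ILRUN-AS1 (-2.75 ± 0.94, SE, adjusted p = 0.027) at 360 min ended when 1 library was left out, LINC00960 without LacZ replicate 2 (1.81, adjusted p = 0.14) or RBMS3 replicate 1 (2.40, adjusted p = 0.081), and ILRUN-AS1 without RBMS3 replicate 2 (-1.89, adjusted p = 0.16), LacZ replicate 1 (-2.27, adjusted p = 0.11) or LacZ replicate 3 (-2.85, adjusted p = 0.0504).

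For 186 antisense and divergent RNAs the partner gene was itself tested. At 0 min, both were higher in RBMS3 cells in 11 pairs and both lower in 5, the RNA was higher and the partner lower in 4, and the reverse held in 0. The RNA alone passed in 16 pairs, the partner alone in 50 and neither in 100. In all, 36 of the 186 RNAs and 70 of the 186 partners passed, where 18.6% of all tested genes were higher and 18.9% lower. Across the 186 pairs the log2 differences of RNA and partner had a Pearson r of 0.518 at 0 min and 0.579 at 360 min, where 13 pairs were both higher, 7 both lower, 3 had a higher RNA with a lower partner and 0 the reverse. At 360 min 38 RNAs and 74 partners passed, where 17.5% of all tested genes were higher and 17.7% lower. Whether the pair counts differ from what these rates alone would give was not tested. Both members of a pair were measured in the same libraries. The RNA was the more abundant member, by mean normalized count, in 24 of the 186 pairs, compared by 3′ tags and not per length.

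The 11 pairs with both higher at 0 min were those of APCDD1L-DT, DHRS4-AS1, FOXC2-AS1, HHIP-AS1, LMO7-AS1, LOXL1-AS1, NNT-AS1, NR2F1-AS1, SAP30-DT, SUCLG2-AS1 and TRAM2-AS1, and the 5 with both lower those of EPHA1-AS1, LHX1-DT, OTUD6B-AS1, SH3PXD2A-AS1 and SPINT1-AS1. The sizes within a pair were not alike. NNT-AS1 differed by 0.43 ± 0.14 (SE, adjusted p = 0.017) at 0 min, with 359, 301 and 318 in RBMS3 cells and 231, 220.1 and 278 in LacZ cells, whereas NNT, a mitochondrial transhydrogenase gene that starts beside it, differed by 2.38 ± 0.42 (SE, adjusted p = 0.00013).

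**Figure D4:**
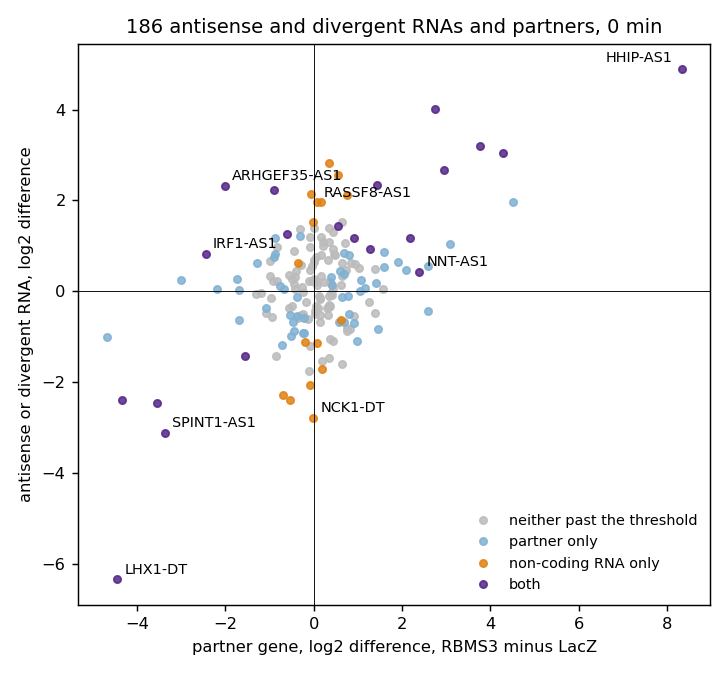
Log2 difference of RBMS3 minus LacZ cells at 0 min for 186 antisense or divergent RNAs (vertical) against that of the partner gene (horizontal), 1 point per pair, coloured by which member passed the threshold. Pairs in which both passed lie in the upper right (11) and lower left (5), 4 lie in the upper left and 0 in the lower right.

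4 pairs went opposite ways, and were picked out for naming after their values were seen. IRF1-AS1 stood at 45.3, 46.3 and 24.6 in RBMS3 cells, against 24.3, 18.7 and 19.05 in LacZ cells at 0 min (log2 difference 0.83 ± 0.32, SE, adjusted p = 0.046). IRF1, a transcription factor of the interferon response whose last exon the RNA overlaps, stood at 143, 98.1 and 105 in RBMS3 cells and 474, 904 and 568 in LacZ cells (-2.44 ± 0.54, SE, adjusted p = 0.0012). ARHGEF35-AS1 was 59.1, 60.5 and 98.2 in RBMS3 cells and 19.5, 3.94 and 27.7 in LacZ cells, whereas ARHGEF35 was 37.6, 38.7 and 53.4 in RBMS3 cells and 166, 161 and 203 in LacZ cells, and the end of that RNA shares sequence with another gene. MAFG-DT differed by 2.22 ± 0.42 (SE, adjusted p = 0.00029) and MAFG, a small MAF transcription factor, by -0.90 ± 0.34 (SE, adjusted p = 0.039). BAIAP2-DT differed by 1.26 ± 0.24 (SE, adjusted p = 0.00029) and BAIAP2 by -0.60 ± 0.18 (SE, adjusted p = 0.010). BAIAP2-DT was 74.1, 91.5 and 82.1 in RBMS3 cells and 30.7, 42.0 and 29.7 in LacZ cells, without overlap. In 2 further pairs chosen after their values were seen, the RNA passed and the partner did not: NCK1-DT at -2.78 beside NCK1 at -0.01 ± 0.50 (SE, adjusted p = 0.99), and RASSF8-AS1 at 1.97 ± 0.35 (SE, adjusted p = 0.00015) beside RASSF8 at 0.07 ± 0.23 (SE, adjusted p = 0.85). ZEB1-AS1, also chosen after its values were seen, was 6.25, 16.3 and 22.1 in RBMS3 cells and 3.07, 0.625 and 6.28 in LacZ cells at 0 min (1.97 ± 0.86, SE, adjusted p = 0.078), while ZEB1, a repressor of epithelial genes, differed by 4.52 ± 0.38 (SE, adjusted p = 6.3e-09). RBMS3-AS3, antisense to the introduced gene, was 12.6, 4.39 and 16.0 in RBMS3 cells and 16.2, 20.7 and 17.9 in LacZ cells at 0 min, with a difference of -0.83 ± 0.56 (SE, adjusted p = 0.26).

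Among the other abundant pairs, SLC16A1-AS1 starts beside the gene of the lactate transporter MCT1. It stood at 119, 111 and 146 in RBMS3 cells and 439.6, 277 and 393 in LacZ cells at 360 min, and its log2 difference was -0.58 ± 0.24 (SE, adjusted p = 0.062) at 0 min and -1.54 ± 0.24 (SE, adjusted p = 3.5e-05) at 360 min, where SLC16A1 differed by -0.34 ± 0.07 (SE, adjusted p = 0.00042). VPS9D1-AS1 was 106, 158 and 141 in RBMS3 cells and 185, 245 and 196 in LacZ cells at 0 min (-0.63 ± 0.17, SE, adjusted p = 0.0046), and at 360 min the lines differed by 0.16 ± 0.17 (SE, adjusted p = 0.49). MAP4K3-DT differed by -1.13 ± 0.37 (SE, adjusted p = 0.021) at 0 min and MAP4K3 by 0.07 ± 0.63 (SE, adjusted p = 0.94). EMC3-AS1 did not pass at 0 min (0.14 ± 0.21, SE, adjusted p = 0.63), while EMC3, a subunit of a membrane insertion complex, differed by 0.43 ± 0.12 (SE, adjusted p = 0.010). OIP5, a centromere protein gene, was higher by 1.07 ± 0.22 (SE, adjusted p = 0.00051) at 0 min, beside OIP5-AS1 at 0.25. DHRS4-AS1 differed by 1.17 ± 0.30 (SE, adjusted p = 0.0037) and DHRS4, a dehydrogenase gene, by 2.17 ± 0.70 (SE, adjusted p = 0.019).

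Over 9 short-lived mRNAs such as MYC and FOS, the summed normalized count was 365 to 419 in RBMS3 cells at 360 min, against 7334 to 7498 at 0 min, and 948 to 1065 in LacZ cells at 360 min, against 19329.8 to 26258 at 0 min. In LacZ cells, 1 of the 333 RNAs had risen at 90 min and 6 had fallen, against 3.44% and 2.74% of all tested genes. Those that fell were LINC00324, STX17-AS1, HOXB-AS1, TENM3-AS1, LINC01206 and LINC02878, and the one that rose was RASSF8-AS1. At 360 min, 8 had risen and 26 had fallen in LacZ cells, against 14.9% and 13.6% of all tested genes, and without replicate 2 of LacZ cells at 0 min, the library that stood apart, the counts were 13 and 15, against 13.3% and 11.7%. On the ribosomal protein scaling, on which the median of all genes stood at -0.49, they were 3 and 69, against 1.15% and 37.7% of all tested genes, and at 90 min 1 and 14, against 0.843% and 7.81%. The 69 are 20.7% of the 333. The 26 that fell were 13 intergenic, 9 antisense and 4 divergent RNAs, and the 8 that rose were 1 intergenic and 7 antisense RNAs.

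In RBMS3 cells, 8 had risen and 13 had fallen at 90 min, against 7.99% and 6.52% of all tested genes. These 21 became 13 without RBMS3 replicate 3 at 0 min, 11 without replicate 1 at 90 min and 13 without replicate 2 at 90 min. When rescaled to the ribosomal protein genes the split was 9 and 13, against 8.71% and 6.24% of all tested genes. At 360 min 31 had risen and 43 had fallen, against 19.1% and 18.6%, and on the ribosomal protein scaling, with the median of all genes at -0.39, the counts were 16 and 67 (4.80% and 20.1%), against 6.42% and 31.6%. The total of 74 became 47 without RBMS3 replicate 2 at 0 min and 49 without replicate 3 at 0 min. The 43 were 14 intergenic, 23 antisense and 6 divergent RNAs. The epithelial marker sum moved beside each of these changes in RBMS3 cells, at 3007 to 4722 from 90 min on against 10640.4 to 10826.5 at 0 min. In LacZ cells it was 13687 to 17259 from 90 min on, against 12447 to 13758 at 0 min. Of the epithelial markers in RBMS3 cells, KRT14, KRT5 and TP63 had fallen at 90 min, while KRT18, KRT8, CDH1 and EPCAM did not pass. The mesenchymal sum in RBMS3 cells, given above, moved too. The part of either sum in the changes was not tested. The log2 differences of each line use no library of the other, but those of 1 line share its libraries at 0 min. The spread behind the p-values was estimated once over the libraries of both lines, so the calls of the lines are not independent. Since transcription was blocked, a higher value at a later time means that an RNA made up more of the library, and total RNA was not measured.

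LINC00324 had the largest log2 fall in both lines among the RNAs that the naming rule took at 360 min. In RBMS3 cells it stood at 23.6, 49.97 and 63.6 at 0 min, 0, 0 and 0.724 at 90 min, 0.768, 0 and 1.82 at 180 min, with 3.79, 7.33 and 0 at 360 min. In LacZ cells it stood at 56.4, 93.2 and 68.2 at 0 min, 0.954, 0 and 10.8 at 90 min, 0, 0 and 2.28 at 180 min, with 10.2, 0 and 0 at 360 min. Every library with actinomycin D lay under every library without it, in both lines. The log2 difference at 90 min against 0 min was -5.17 ± 1.00 (SE, adjusted p = 0.0012) in RBMS3 cells and -4.66 ± 1.00 (SE, adjusted p = 0.0074) in LacZ cells. Its promoter window, printed above, holds 3 CpG and no GC box. LINC02878 was reduced to 39.5, 54.2 and 52.2 in RBMS3 cells at 90 min, against 82.6, 81.1 and 98.6 at 0 min, and to 106, 81.0 and 94.3 in LacZ cells at 90 min, against 151, 275 and 137 at 0 min. At 360 min against 0 min its log2 difference was -1.09 ± 0.27 (SE, adjusted p = 0.0033) in RBMS3 cells and -1.62 ± 0.27 (SE, adjusted p = 0.00015) in LacZ cells.

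13 RNAs changed in the same direction in both lines at 360 min, out of 74 that passed in RBMS3 cells and 34 in LacZ cells, and 0 changed in opposite directions. Lower in both lines were 11 (3.30%) and higher in both 2 (0.601%), against 9.40% and 8.66% of all tested genes, of which 0.744% changed in opposite directions. The 11 that fell were CBR3-AS1, EIF1B-AS1, ELF3-AS1, IRF2-DT, LINC00324, LINC00909, LINC02503, LINC02878, MAN1B1-DT, MRPL20-AS1 and SHANK2-AS3, and the 2 that rose were LINC01184 and PRR34-AS1. Across the 333, the log2 differences of both lines had a Pearson r of 0.398, in libraries that share no sample. MRPL20-AS1, which overlaps the last exon of a mitochondrial ribosomal protein gene, stood at 29.8, 24.6 and 17.7 in RBMS3 cells at 360 min, against 52.2, 45.8 and 78.2 at 0 min, and at 42.4, 40.1 and 48.5 in LacZ cells at 360 min, against 67.3, 89.2 and 99.1 at 0 min. Its differences were -1.25 ± 0.26 (SE, adjusted p = 0.00062) in RBMS3 cells and -0.93 ± 0.26 (SE, adjusted p = 0.0091) in LacZ cells. MRPL20 itself differed by 0.15 ± 0.08 (SE, adjusted p = 0.22) in LacZ cells at 360 against 0 min. LINC00909 differed by -1.24 ± 0.40 (SE, adjusted p = 0.019) in RBMS3 cells and -1.81 ± 0.40 (SE, adjusted p = 0.0020) in LacZ cells at 360 min, SHANK2-AS3 by -1.96 ± 0.66 (SE, adjusted p = 0.024) and -2.89 ± 0.66 (SE, adjusted p = 0.0023) in the same order of lines. EIF1B-AS1 fell by 2.69 in RBMS3 cells and by 1.47 in LacZ cells on the log2 scale. Calls in LacZ cells at 360 min ended for CBR3-AS1 (-2.52 ± 0.72, SE, adjusted p = 0.012) without LacZ replicate 2 at 0 min (-2.01, adjusted p = 0.067), and for ELF3-AS1 (-1.50 ± 0.53, SE, adjusted p = 0.040), beside an epithelial ETS factor gene, when any 1 LacZ library at 0 or 360 min other than replicate 3 at 0 min was left out (adjusted p up to 0.14) or low values were not filtered (-1.50, adjusted p = 0.069).

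PRR34-AS1 was one of the gains in both lines. It stood at 318, 304 and 309 in RBMS3 cells at 360 min, against 104, 115 and 194 at 0 min, and at 345, 344 and 293 in LacZ cells at 360 min, against 233, 199.9 and 181 at 0 min. No library overlaps, and the log2 difference was 1.22 ± 0.18 (SE, adjusted p = 1.8e-05) in RBMS3 cells and 0.68 ± 0.18 (SE, adjusted p = 0.0072) in LacZ cells. On the ribosomal protein scaling the LacZ value was 0.15, adjusted p = 0.54. LINC01184 differed by 0.46 ± 0.16 (SE, adjusted p = 0.030) in RBMS3 cells and 0.57 ± 0.16 (SE, adjusted p = 0.013) in LacZ cells, of which the LacZ value was 0.04, adjusted p = 0.87 on that scaling, and its LacZ call ended without LacZ replicate 1 at 0 min or replicate 2 or 3 at 360 min (adjusted p up to 0.070). VPS9D1-AS1 stood at 106, 158 and 141 at 0 min, 257, 264 and 202 at 90 min, 285, 269 and 269.5 at 180 min, with 297, 339 and 306 at 360 min in RBMS3 cells, and every library with actinomycin D lay above every library without it. Its difference at 360 min was 1.23 ± 0.17 (SE, adjusted p = 6.5e-06) in RBMS3 cells and 0.43 ± 0.17 (SE, adjusted p = 0.056) in LacZ cells. The slope difference of VPS9D1-AS1 between the lines did not pass.

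**Figure D5:**
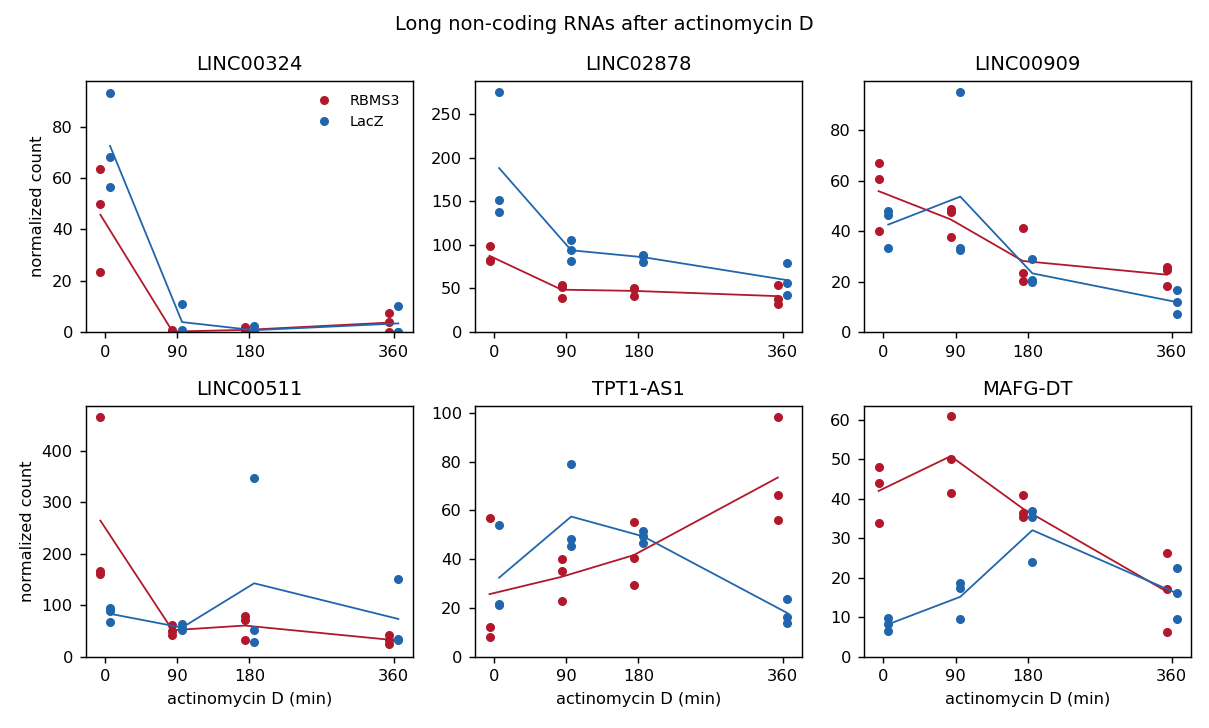
Normalized count of 6 RNAs in each library (points) against minutes of actinomycin D, group means joined by lines, RBMS3 cells in red and LacZ cells in blue. LINC00324 lies near 0 in every library from 90 min on in both lines, and TPT1-AS1 at 360 min stands at 66.1, 98.4 and 55.9 in RBMS3 cells against 23.7, 16.3 and 13.7 in LacZ cells.

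Of the further RNAs that rose in LacZ cells by 360 min, LOXL1-AS1 stood at 28.0, 48.5 and 13.6 at 360 min, against 1.87, 3.03 and 11.2 at 0 min (2.41 ± 0.60, SE, adjusted p = 0.0048). ILRUN-AS1 rose by 3.39 ± 0.94 (SE, adjusted p = 0.0096), KTN1-AS1 by 2.23 ± 0.64 (SE, adjusted p = 0.012), SOCS2-AS1, beside a cytokine signalling suppressor gene, by 1.37 ± 0.46 (SE, adjusted p = 0.031) and WAC-AS1 by 0.52 ± 0.17 (SE, adjusted p = 0.023). Those calls ended when 1 library was left out: ILRUN-AS1 without LacZ replicate 2 at 0 min (2.53, adjusted p = 0.064), KTN1-AS1 without LacZ replicate 1 at 360 min (1.72, adjusted p = 0.079), SOCS2-AS1 without LacZ replicate 3 at 0 min or replicate 1 or 3 at 360 min (adjusted p up to 0.15), and WAC-AS1 without LacZ replicate 1 or 3 at 0 min or replicate 1 at 360 min (adjusted p up to 0.12). On the ribosomal protein scaling SOCS2-AS1 was at 0.86, adjusted p = 0.15 and WAC-AS1 at -0.0050, and with no filter on low values SOCS2-AS1 was at 1.37, adjusted p = 0.054. Among those that fell in LacZ cells, CELF2-DT was 6.90, 3.25 and 7.80 at 360 min, against 41.2, 81.8 and 41.1 at 0 min (-2.99 ± 0.81, SE, adjusted p = 0.0086). LINC00520 differed by -3.37 ± 0.96 (SE, adjusted p = 0.012), a call that ended without LacZ replicate 3 at 360 min (-2.25, adjusted p = 0.094). LINC01572 differed by -2.63 ± 0.82 (SE, adjusted p = 0.021) and LINC00311 by -1.84 ± 0.57 (SE, adjusted p = 0.019). Their calls ended without LacZ replicate 3 at 0 min or replicate 2 at 360 min (LINC01572, adjusted p up to 0.11) and without LacZ replicate 2 at 0 min or replicate 3 at 360 min (LINC00311, adjusted p up to 0.077).

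In RBMS3 cells the largest gain by 360 min was that of LHX1-DT, at 19.8, 19.1 and 40.1 against 2.66, 2.92 and 0 at 0 min (3.41 ± 0.48, SE, adjusted p = 1.2e-05). IRX4-AS1, beside an Iroquois homeobox gene, stood at 46.5, 38.8 and 53.6 at 360 min, against 11.8, 3.77 and 8.21 at 0 min (2.51 ± 0.40, SE, adjusted p = 4.5e-05). It had reached 39.5, 29.7 and 36.9 by 90 min, and the lines, which differed by -2.27 ± 0.40 (SE, adjusted p = 0.00012) at 0 min, differed by 0.13 ± 0.40 (SE, adjusted p = 0.84) at 360 min. ZNF232-AS1 stood at 84.5, 124 and 50.6 at 0 min, 187, 203 and 136 at 90 min, 252, 189.6 and 209 at 180 min, with 205, 281 and 317 at 360 min in RBMS3 cells (1.69 ± 0.33, SE, adjusted p = 0.00039 at 360 against 0 min), and its LacZ libraries showed 0.09 ± 0.33 (SE, adjusted p = 0.87). The slope difference of ZNF232-AS1 between the lines did not pass. RAB30-DT rose by 1.39 ± 0.33 (SE, adjusted p = 0.0020) and LINC00863 by 2.14 ± 0.55 (SE, adjusted p = 0.0039) in RBMS3 cells. The other 5 of the 10 named gains lost their call when 1 library was left out. Those of LINC02762 (2.60 ± 0.74, SE, adjusted p = 0.0085) and RPARP-AS1 (2.32 ± 0.74, SE, adjusted p = 0.017) ended without RBMS3 replicate 1 at 0 min (1.61, adjusted p = 0.073 and 1.00, adjusted p = 0.14), and that of RPARP-AS1 also without RBMS3 replicate 3 at 360 min (2.01, adjusted p = 0.070). That of SLC25A34-AS1 (2.33 ± 0.73, SE, adjusted p = 0.016) ended without RBMS3 replicate 2 at 0 min (1.43, adjusted p = 0.13). SERTAD4-AS1 (1.59 ± 0.50, SE, adjusted p = 0.015) lost its call without RBMS3 replicate 2 at 0 min or replicate 1 at 360 min (adjusted p up to 0.099), and STARD7-AS1 (1.81 ± 0.65, SE, adjusted p = 0.033) without any 1 RBMS3 library at 0 or 360 min other than replicate 2 at 360 min (adjusted p up to 0.096). Their calls also ended on the ribosomal protein scaling, with SERTAD4-AS1 at 1.21, adjusted p = 0.060 and STARD7-AS1 at 1.45, adjusted p = 0.085, and with no filter on low values STARD7-AS1 was at 1.81, adjusted p = 0.066.

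Of the losses in RBMS3 cells, LINC00511 stood at 32.2, 43.1 and 24.6 at 360 min, against 466, 160.2 and 167 at 0 min (-2.80 ± 0.67, SE, adjusted p = 0.0025), and replicate 1 at 0 min was the highest of all its libraries. In LacZ cells it was 35.1, 33.5 and 152 at 360 min and 88.8, 93.9 and 67.9 at 0 min, with 1 library far above the others at 360 min (-0.54 ± 0.67, SE, adjusted p = 0.60). TMEM51-AS1 was 0, 0 and 11.7 in RBMS3 cells at 360 min, against 20.03, 27.9 and 36.1 at 0 min (-3.60 ± 0.92, SE, adjusted p = 0.0041), and is listed at 0 in all RBMS3 libraries at 180 min. EIF1B-AS1 was 7.79, 7.12 and 3.54 at 360 min, against 36.9, 38.0 and 57.4 at 0 min (-2.69 ± 0.47, SE, adjusted p = 0.00012). ZNF790-AS1 was 9.30, 6.80 and 2.75 in RBMS3 cells at 360 min, against 28.7, 36.9 and 28.4 at 0 min (-2.26 ± 0.43, SE, adjusted p = 0.00031), and its difference between the lines at 360 min, RBMS3 minus LacZ, was -1.54 ± 0.43 (SE, adjusted p = 0.0079). LINC02142 (-3.53 ± 1.00, SE, adjusted p = 0.0081) and FRMD6-AS1 (-2.77 ± 0.82, SE, adjusted p = 0.011) lost their calls without RBMS3 replicate 3 at 360 min (-2.37, adjusted p = 0.068 and -1.49, adjusted p = 0.093). LINC02822 (-2.40 ± 0.77, SE, adjusted p = 0.018) lost it without RBMS3 replicate 2 at 0 min (-2.13, adjusted p = 0.069) or replicate 1 at 360 min (-0.94, adjusted p = 0.13). FBXL19-AS1 (-2.37 ± 0.80, SE, adjusted p = 0.023) lost it without RBMS3 replicate 1 at 0 min or replicate 2 at 360 min (adjusted p up to 0.13), and LINC01060 (-3.42 ± 1.25, SE, adjusted p = 0.036) without any 1 RBMS3 library at 0 or 360 min other than replicate 1 at 360 min (adjusted p up to 0.17). The call of LINC01060 also ended with an added count of 0.5 (-3.81, adjusted p = 0.054) or no filter on low values (-3.42, adjusted p = 0.059).

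Whether the lines differed in how fast an RNA changed was tested as the RBMS3 slope minus the LacZ slope over the 4 times, in log2 units for each hour. 2 of the 333 RNAs had a higher slope in RBMS3 cells and 1 a lower slope, against 2.93% and 2.24% of all tested genes. The slope differences of IRX4-AS1, SLC16A1-AS1, LINC00511, LINC01819, VPS9D1-AS1 and ZNF232-AS1 did not pass. The count of 3 became 6 without LacZ replicate 1 or 2 at 0 min, and 5 without RBMS3 replicate 1 or 2 at 0 min, replicate 3 at 90 min or replicate 3 at 360 min. On the ribosomal protein scaling 3 slopes were higher and 1 lower, against 4.65% and 1.72% of all tested genes. The epithelial and mesenchymal marker sums given above differ between 0 min and later times in RBMS3 cells beside these slopes too, and their part was not tested. The median SE of a slope difference was 0.13 log2 per hour for these RNAs and 0.06 for all tested genes. LHX1-DT differed by 0.49 ± 0.11 (SE, adjusted p = 0.010) log2 per hour. In RBMS3 cells it stood at 2.66, 2.92 and 0 at 0 min, 12, 9.18 and 11.6 at 90 min, 20.9, 36.1 and 7.89 at 180 min, with 19.8, 19.1 and 40.1 at 360 min. In LacZ cells it stood at 182, 266 and 154 at 0 min, 114, 141 and 190.3 at 90 min, 174, 167 and 176 at 180 min, with 196, 176 and 217 at 360 min. The RBMS3 libraries thus remained under all LacZ libraries at every time while their level with actinomycin D lay above that without it. The slope difference of LHX1 was 0.14 ± 0.09 (SE, adjusted p = 0.39). With edgeR, the estimated reads of LHX1-DT in RBMS3 cells differed by 0.87 between 360 and 90 min (adjusted p = 0.37).

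TPT1-AS1, which starts beside the abundant TPT1 gene of a translation-associated protein, differed in slope by 0.47 ± 0.12 (SE, adjusted p = 0.021) log2 per hour. It stood at 66.1, 98.4 and 55.9 in RBMS3 cells, against 23.7, 16.3 and 13.7 in LacZ cells at 360 min, without overlap, and at 56.7, 7.97 and 12.3 and 21.8, 21.4 and 54.2 at 0 min in the same order of lines, where the groups overlap. The call ended without RBMS3 replicate 2 at 360 min (0.43, adjusted p = 0.068) or LacZ replicate 3 at 360 min (0.44, adjusted p = 0.058), and over 0 to 180 min alone the difference was 0.13, adjusted p = 0.84. Its summed estimated reads were 45.6, 36.5 and 37.5 in RBMS3 cells at 360 min and 15.0, 36.3 and 53.9 at 90 min, and with edgeR they differed by 0.44 between these times (adjusted p = 0.41). The slope difference of TPT1 was -0.01 ± 0.01 (SE, adjusted p = 0.72) log2 per hour. MAFG-DT had the 1 lower slope, -0.41 ± 0.10 (SE, adjusted p = 0.015) log2 per hour. It stood at 44.0, 48.1 and 33.9 at 0 min, 60.8, 41.5 and 49.98 at 90 min, 35.3, 40.9 and 36.4 at 180 min, with 17.1, 26.2 and 6.18 at 360 min in RBMS3 cells, and at 6.63, 8.19 and 9.88 at 0 min, 9.54, 17.4 and 18.7 at 90 min, 35.3, 36.9 and 23.9 at 180 min, with 22.5, 9.62 and 16.2 at 360 min in LacZ cells. The lines did not overlap at 0 and 90 min and did at 180 and 360 min. The call ended without LacZ replicate 1 at 360 min (-0.36, adjusted p = 0.051), and over 0 to 180 min alone the difference was -0.66, adjusted p = 0.054.

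Estimated reads could be tested where file names and labels did not differ, between RBMS3 cells at 360 and 90 min. Of 221 RNAs with enough reads, 7 were higher at 360 min and 3 lower (edgeR's quasi-likelihood test, adjusted p under 0.05), against 11.5% and 12.6% of the 12359 genes tested. The total of 10 became 5 without RBMS3 replicate 2 at 90 min, 6 without replicate 3 at 90 min or replicate 1 at 360 min, and 4 without replicate 3 at 360 min. The higher ones were MAGI2-AS3, MORC2-AS1, NUTM2A-AS1, PPP1R14B-AS1, SLC25A34-AS1, VPS9D1-AS1 and ZNF232-AS1, and the lower ones LINC02503, MRPL20-AS1 and STX18-AS1. In the normalized table the same comparison gave 4 higher and 8 lower of 333 with limma, against 7.62% and 8.35% of all tested genes. LINC02503, MRPL20-AS1 and PPP1R14B-AS1 passed both tests, in the same direction, and 0 went the other way. The sign of the difference was shared for 188 of the 221. ZNF232-AS1 had 265, 274 and 289.6 estimated reads in RBMS3 cells at 360 min, against 206, 232 and 197 at 90 min, a log2 difference of 0.57 (adjusted p = 0.023). MRPL20-AS1 had 31, 25 and 17.0 at 360 min, against 44.0, 60.0 and 72.0 at 90 min, a log2 difference of -1.06 (adjusted p = 0.022).

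A list of other well-known long non-coding RNAs whose symbols do not follow these forms, such as MALAT1, NEAT1 and GAS5, was set beside them. The deposited table held 67 of these genes, of which 41 were tested. At 0 min 7 were higher and 7 lower in RBMS3 cells (17.1% each), against 18.6% and 18.9% of all tested genes. At 360 min 10 were higher and 2 lower (24.4% and 4.88%), against 17.5% and 17.7%. By 360 min 10 had risen and 10 had fallen in RBMS3 cells (24.4% each), against 19.1% and 18.6%. In LacZ cells 2 had risen and 7 had fallen (4.88% and 17.1%), against 14.9% and 13.6%. In RBMS3 cells 4 had a higher and 0 a lower slope (9.76% and 0%), against 2.93% and 2.24% of all tested genes. MALAT1, a nuclear RNA of speckles, stood at 12668, 15703 and 13372 in RBMS3 cells and 10092, 5233 and 6897 in LacZ cells at 0 min, a log2 difference of 0.96 ± 0.15 (SE, adjusted p = 4.8e-05). NEAT1, the scaffold RNA of paraspeckles, fell in both lines by 360 min, with -1.17 ± 0.26 (SE, adjusted p = 0.0014) in RBMS3 cells and -1.63 ± 0.26 (SE, adjusted p = 8.4e-05) in LacZ cells. NORAD, a cytoplasmic RNA that binds Pumilio proteins, was higher in RBMS3 cells at 0 min by 0.66 ± 0.15 (SE, adjusted p = 0.0017) and at 360 min by 0.77 ± 0.15 (SE, adjusted p = 0.00050).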

How the data were processed

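RNA of 24 HMLE libraries was read by 3′ tag sequencing, 3 libraries for each of 2 lines at 4 times. DESeq2 1.32.0, Salmon 1.4.0 and Trim Galore 0.6.6 are named in the list of software, per the submitters' processing notes, which give them no role or order here. Neither a genome build nor an annotation for them is given in the sources used here. A table that the authors deposited holds a normalized signal per library for 38849 genes, called normalized count here, whose values are not whole reads over a size factor, so no count test was run on it. The authors deposited an estimated count and a TPM for each of 231288 transcripts of each library, per the file headers, and the deposited TPM values were not used. Attached file and title disagreed for 12 of 24 samples, those of RBMS3 cells at 0 min and of LacZ cells at 90, 180 and 360 min. Each file correlated best across 11960 genes with the table column of the file's own name (lowest r 0.919, highest r with any other column 0.911), so table columns, matched by title, were used throughout, and estimated counts, rounded and summed by GENCODE release 29 gene, were used for the 12 undisputed samples alone. The 24 libraries summed to 6638187 to 8080428 in the table.

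The test was limma 3.58.1 (R 4.3.3, trend on) on log2(normalized count + 1), fitted once over all 8 groups, and p-values were adjusted by Benjamini-Hochberg over 12096 genes with a mean of at least 10, which all 333 RNAs met. The added count of 1 understates differences of low values. edgeR 4.0.16 compared RBMS3 cells at 360 and 90 min. Both were run on simulated data as a check of the code, with normal noise on log2 values for limma and a single fixed dispersion for edgeR. That check does not show how either test performs on RNAs with few reads. Same-numbered replicates did not deviate together (median r 0.0016 over 84 pairs, 1 over 0.1), so the numbers do not pair samples. The RNAs named are the 10 highest by mean, up to 10 largest rises and falls of a comparison among those that passed whose higher group averaged 20 or more and whose libraries do not overlap (for slopes, overlap was not a condition), those that passed at all 4 times and averaged 50 or more in the higher group at 0 min, and the 8 most abundant pairs in which a member passed. RNAs named outside that rule were chosen after their values were seen. The members, lists and rules were chosen with earlier results of these data known. Alternatives were another pseudocount, another filter, scaling to 95 ribosomal protein genes, a replicate block, no trend, DESeq2 1.42.0, and each library left out.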

Additional observations from a re-analysis of the deposited data

Results flagged for a closer look

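3 RNAs are flagged because the change per hour of actinomycin D differed between the lines in a test of that difference itself (limma, RBMS3 minus LacZ). The slope was higher for 0.601% of the 333 RNAs and lower for 0.300%, below the 2.93% and 2.24% of all tested genes. LHX1-DT differed by 0.49 log2 per hour (adjusted p = 0.010), with every RBMS3 library at a later time above those at 0 min, while LacZ libraries at later times overlap those at 0 min. TPT1-AS1 differed by 0.47 log2 per hour (adjusted p = 0.021) and MAFG-DT by -0.41 log2 per hour (adjusted p = 0.015). The call of TPT1-AS1 ended without RBMS3 replicate 2 or LacZ replicate 3 at 360 min and over 0 to 180 min alone (0.13, adjusted p = 0.84), and that of MAFG-DT without LacZ replicate 1 at 360 min and over 0 to 180 min alone (-0.66, adjusted p = 0.054). MAFG-DT has no summed reads with which to compare the table.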

How the results depend on the processing

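With 1 library left out, the number of RNAs that passed was 60 to 75 at 0 min between the lines (77 with all libraries), 46 to 73 at 90 min (67), 55 to 70 at 180 min (67), 56 to 77 at 360 min (69), 5 to 9 in LacZ cells at 90 min (7), 24 to 38 at 360 min (34), 11 to 25 in RBMS3 cells at 90 min (21), 47 to 79 at 360 min (74), 2 to 6 for slopes (3) and 4 to 8 for estimated counts (10). With no filter on low values it was 4 in LacZ cells at 90 min and 22 at 360 min, and on the ribosomal protein scaling 15 and 72. Over 0 to 180 min alone, 9 slopes passed. WAC-AS1 in LacZ cells at 360 min was at -0.0050 on that scaling, against 0.52 with the deposited one, and the cause was not tested. With the replicate number as a block, although same-numbered samples showed no pairing, the counts were 73, 67, 67, 69, 6, 36, 19, 69, 3 and 7 in the order above. The share of all tested genes was not counted for the no-filter, 0 to 180 min, replicate-block and most left-out-library settings. Those counts show how far the numbers move and give no result about these RNAs. Of 80 results for named RNAs, 53 passed under every alternative, 26 lost their call in a left-out library, 10 under another setting and 1 reversed. 110 of 314 RNAs averaged under 10 estimated reads. The 3 libraries of a group limit every single call.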
